A study of Mus musculus with 12 samples.

Results

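Ketone body metabolism was followed through 4 genes, Bdh1, Bdh2, Oxct1 and Acat1, in heart ventricles and epididymal white adipose tissue (EWAT) of WT and MED13cTg mice. The 4 genes are a pathway picked by name out of the 23042 rows of each expression table, and Bdh1 led to the choice because of its fall in MED13cTg ventricles. Its genotype difference in ventricles is therefore given as a description with no test, whereas the other 3 genes, and all 4 genes in EWAT, were tested. All 4 genes were found in both tables and all 4 passed the filter on low values in both tissues.

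Both genotypes were male littermates of the C57BL/6 strain on normal chow, with an age of 6 weeks in the sample labels and 6 to 8 weeks in the methods of the study. Tissue was taken from fed mice toward the end of the day. MED13cTg mice carry a transgene that raises MED13, a subunit of the kinase module of the Mediator complex, in the heart, and the promoter that drives it is not given in the sources used here. RNA was sequenced from 3 mice per genotype and tissue, 12 libraries in all. Med13 in ventricles was at 13.1, 10.6 and 11.5 FPKM in the WT libraries, against 263, 181 and 204 for MED13cTg. Its EWAT means were 10.1 ± 0.764 for WT and 9.85 ± 1.75 for MED13cTg (FPKM, SD, n = 3). FPKM is the number of fragments per kilobase of transcript scaled to the mapped fragments of the library, so levels of different genes can be compared per length.

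Ketone bodies are small fuels that the liver makes from fatty acids during fasting and that heart, muscle and brain burn. In the mitochondria of a tissue that uses them, β-hydroxybutyrate dehydrogenase (encoded by Bdh1) oxidizes β-hydroxybutyrate to acetoacetate, succinyl-CoA:3-oxoacid CoA transferase (encoded by Oxct1) activates acetoacetate to acetoacetyl-CoA, and the thiolase encoded by Acat1 splits that into acetyl-CoA for the Krebs cycle. The enzymes encoded by Bdh1 and Acat1 work in both directions and also take part in ketone synthesis, while the CoA transferase is the step that liver lacks. Bdh2 encodes a cytosolic relative of the dehydrogenase.

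The libraries differed in depth and in likeness to each other. The number of fragments per library, relative to WT replicate 1 of the same tissue, ran from 0.905 to 1.018 in ventricles and from 0.741 to 0.947 in the other EWAT libraries, and absolute depth is unknown from FPKM. Ventricle libraries had rank correlations of 0.944 to 0.969 with each other and formed a pair of sets that cross the genotypes, WT replicate 1 with MED13cTg replicates 1 and 2, and WT replicates 2 and 3 with MED13cTg replicate 3. The 8 cardiomyocyte markers, led by myosin and troponin genes, summed to between 59714 and 93370 FPKM in every ventricle library. The 5 atrial markers summed to 447 to 743 FPKM in WT and 996 to 2443 FPKM in MED13cTg ventricles, with no overlap. Without Nppa the other 4 overlapped, with sums of 179, 84.9 and 78.9 FPKM for WT, against 103, 670 and 72.1 for MED13cTg. In EWAT the libraries of MED13cTg replicates 1 and 2 stood apart, with rank correlations of at most 0.494 and 0.852 to any other library, against 0.968 for MED13cTg replicate 3. For the 4 genes and the ketone list in EWAT, values without each of these libraries are given beside the results.

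In WT ventricles the enzymes of ketone oxidation downstream of the dehydrogenase were among the most abundant transcripts, and the dehydrogenases were not. Oxct1 was at 554, 568 and 683 FPKM, a mean of 602 ± 70.6 FPKM (SD, n = 3), above 99.0% of the rows of the table. Acat1 was at 332, 525 and 622 FPKM, a mean of 493 ± 148 FPKM (SD, n = 3), above 98.9% of rows. The ranges of these 2 genes overlapped, so their order was not clear of the spread between mice.

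Bdh1 was far lower, at 11.3, 8.34 and 11.2 FPKM in WT ventricles, a mean of 10.3 ± 1.68 FPKM (SD, n = 3). It held 2.03, 1.47 and 1.65 FPKM per 100 FPKM of Oxct1 in the 3 WT mice. Bdh2 was at 1.36, 0.95 and 1.13 FPKM, near the lower limit of a mean of 1 FPKM for testing. Bdh1 and Bdh2 did not overlap each other or the 2 abundant genes in any WT ventricle library.

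In WT EWAT, too, Oxct1 and Acat1 were above both dehydrogenases. Acat1 came first at 80.0, 105 and 99.9 FPKM (95.02 ± 13.3 FPKM, SD, n = 3) and Oxct1 next at 59.3, 76.3 and 74.7 FPKM (70.1 ± 9.36 FPKM, SD, n = 3), with no overlap. Bdh1 was at 6.08, 4.47 and 5.09 FPKM and Bdh2 at 3.20, 3.49 and 3.55 FPKM, again without overlap. Set side by side, the WT means of ventricles were 8.58 times those of EWAT for Oxct1, 5.19 times for Acat1, 1.97 times for Bdh1 and 0.336 times for Bdh2. The tables of the tissues were made separately, so no test was run across them. The WT EWAT libraries also held RNA of epididymis. Its 12 markers summed to 77617 to 101192 FPKM, against 13669 to 32591 FPKM for 11 adipocyte markers. The WT EWAT values are thus of the whole sample, and the part of each cell type in them was not tested.

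Bdh1 was the gene of the pathway that differed most between genotypes in ventricles. The 3 MED13cTg mice read 1.73, 1.42 and 1.51 FPKM, a mean of 1.55 ± 0.162 FPKM (SD, n = 3), against 8.34 to 11.3 FPKM in the WT mice. Every MED13cTg library lay below every WT library and the groups were far apart. The WT mean was 6.62 times the MED13cTg mean, and the log2 fold on log2(FPKM + 1) was -2.13 with a standard error (SE) of 0.14. Ordered from the lowest, this fold ranked 37 among the 12589 genes tested in ventricles. Since Bdh1 was chosen for this fall, the order is a description, as is the 5.85% of tested genes in which every MED13cTg ventricle library lay below every WT library.

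The values of Bdh1 within each set of alike libraries are likewise a description. In the first set, Bdh1 was at 11.3 FPKM in the WT mouse and 1.73 and 1.42 FPKM in the MED13cTg mice. In the second, it was at 8.34 and 11.2 FPKM in the WT mice and 1.51 FPKM in the MED13cTg mouse. Nppa, listed here as an atrial marker, was higher in every MED13cTg library (564, 408 and 368 FPKM in WT, against 892, 1773 and 1088), while the other 4 atrial markers overlapped. Of all genes tested in ventricles, 3.46% lay above in this way, and the adjusted p of Nppa was 0.746 (limma). The paper also reports raised Nppa expression in MED13cTg ventricles. The part of atrial tissue in the level of Bdh1 was not tested. In whole ventricles, fewer cells that express a gene and less RNA of it per cell cannot be told apart.

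**Figure D1:**
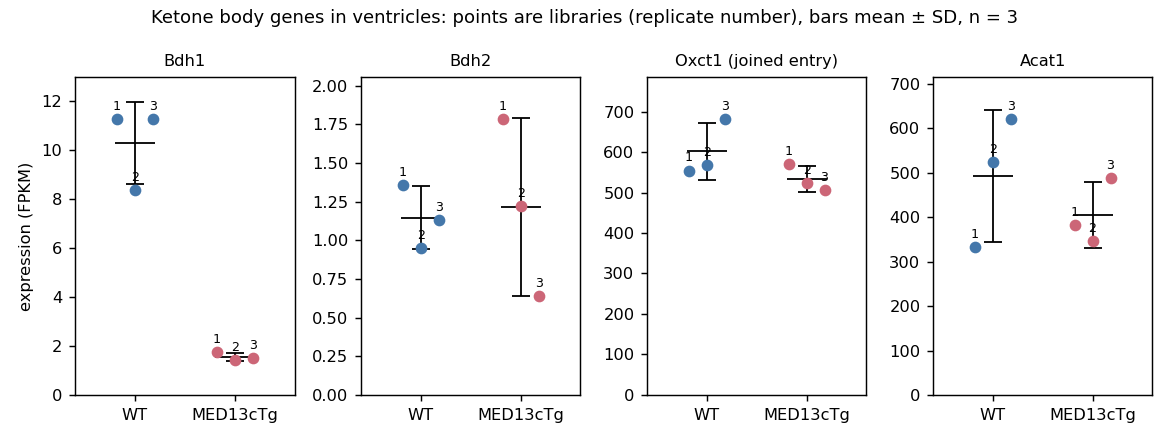
Expression in FPKM of Bdh1, Bdh2, Oxct1 and Acat1 in ventricles, 1 point per library with its replicate number, and bars for the mean ± SD of 3 mice, on linear axes that start at 0. Bdh1 lies between 8.34 and 11.3 FPKM in WT and between 1.42 and 1.73 FPKM in MED13cTg mice, while the genotypes overlap in the other 3 genes.

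The deposited entry of Bdh1 spans chr16:31422382-31458987 of the mm9 genome, the whole gene, and its length of 36606 bases is close to the 36605 bases of the gene in RefSeq (GRCm38). An antisense RNA gene, Gm15743, overlaps Bdh1 in GENCODE, and its reads could not be told from those of Bdh1 because the library kit in the labels does not mark strand. No tested gene next to Bdh1 on the chromosome was called. Of the 6 nearest named protein-coding genes (3 on each side), 5 were tested in ventricles, and all 5 overlapped between genotypes and missed the threshold (adjusted p between 0.966 and 0.991). Among all genes tested in ventricles, 0.0238% were called higher and 0.0318% lower. Without overlap, 3.46% lay above and 5.85% below, so uncalled neighbours with overlap are the usual case. Dlg1, a scaffold protein gene and the nearest of these after Bdh1, was at 20.3, 24.1 and 25.7 FPKM in the WT libraries, against 20.8, 19.9 and 23.7 for MED13cTg ventricles (log2 fold -0.11, SE 0.13, adjusted p = 0.966). Apod, which encodes an apolipoprotein and is the nearest of these before Bdh1, was at 4.35, 5.15 and 3.65 FPKM in the WT libraries, against 3.26, 3.01 and 3.73 for MED13cTg ventricles (log2 fold -0.31, SE 0.14, adjusted p = 0.966).

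Oxct1, which encodes the CoA transferase, showed no change past the threshold in ventricles. It was at 554, 568 and 683 FPKM in the WT libraries, against 571, 523 and 507 for MED13cTg, and the groups overlapped. Its log2 fold was -0.17 (SE 0.14, 95% interval -0.51 to 0.17, adjusted p = 0.966 by limma over all genes tested). Its entry, chr15:3946038-4105344 in mm9, is joined with A630020A06 and is longer than the RefSeq gene (159307 against 128917 bases), so its value is uncertain. The genes BC037032 and Gm15632 overlap Oxct1 on the opposite strand in GENCODE, and their reads could not be told from those of Oxct1 either.

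Acat1 did not overlap between the sets of libraries that cross the genotypes, and overlapped between genotypes. The sets were drawn from the likeness of these same libraries, so the values of Acat1 by set are a description. How often other genes lie without overlap between the sets was not tested. In WT replicate 1 and MED13cTg replicates 1 and 2 it was at 332, 382 and 346 FPKM, and in WT replicates 2 and 3 and MED13cTg replicate 3 it was at 525, 622 and 489 FPKM. Its log2 fold was -0.25 (SE 0.26, 95% interval -0.87 to 0.37, adjusted p = 0.966), and -0.05 with the set as a covariate. The Acat1 entry, chr9:53345151-53418455 in mm9, is 73305 bases long against 29829 bases for the RefSeq gene, so fragments from outside the gene may be included.

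Bdh2 was at 1.36, 0.95 and 1.13 FPKM in the WT libraries, against 1.79, 1.22 and 0.639 for MED13cTg ventricles. The MED13cTg mice were spread to both sides of the WT mice, and the log2 fold was 0.02 (SE 0.22, 95% interval -0.50 to 0.53, adjusted p = 0.994). The sign of this value turned under 6 of 14 alternatives, from -0.17 to 0.26 in all. Of the 12589 genes tested in ventricles, 0.0238% passed an adjusted p under 0.05 as higher and 0.0318% as lower. None of Bdh2, Oxct1 and Acat1 did, and none had an unadjusted p under 0.05, which 1.69% of genes tested had as higher and 3.03% as lower.

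Ratios within a library do not depend on how libraries were scaled. In MED13cTg ventricles Bdh1 held 0.303, 0.271 and 0.298 FPKM per 100 FPKM of Oxct1, against 1.47 to 2.03 in WT, a ratio of means of 5.90. Since Bdh1 was chosen for its fall in these libraries, its low ratios here follow from the choice and are a description. Per 100 FPKM of Acat1 it held 0.454, 0.409 and 0.309 in MED13cTg and 3.395, 1.59 and 1.81 in WT mice. Acat1 held 59.9, 92.5 and 91.1 FPKM per 100 FPKM of Oxct1 in WT and 66.9, 66.2 and 96.4 in MED13cTg mice, with overlap.

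**Figure D2:**
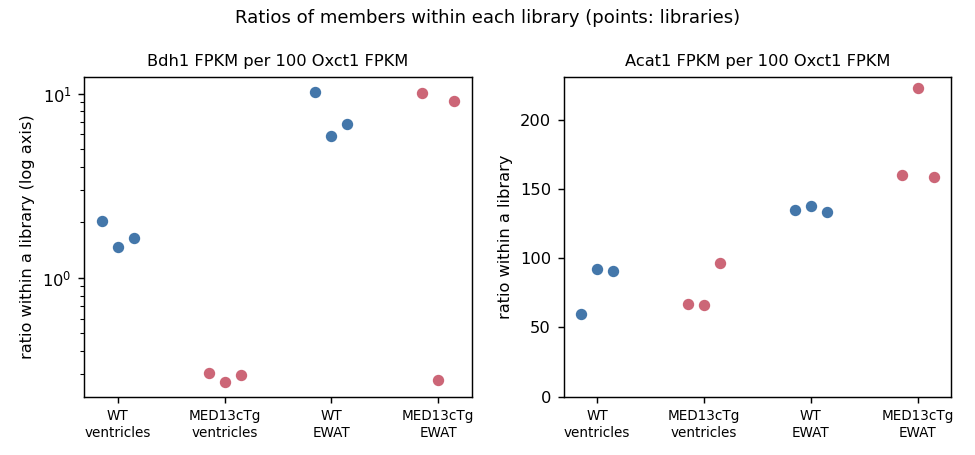
Ratios of FPKM within each of the 12 libraries, Bdh1 per 100 FPKM of Oxct1 on a log axis (left) and Acat1 per 100 FPKM of Oxct1 on a linear axis (right), 1 point per library. The MED13cTg ventricles lie between 0.271 and 0.303 in the left panel, below the WT ventricles at 1.47 to 2.03, a description since Bdh1 was chosen for its fall there. In the right panel the MED13cTg EWAT libraries lie above the WT EWAT libraries, a description with no test.

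The wider ketone body list of 25 genes, taken from textbook biochemistry, held 17 genes tested in ventricles. None was called higher or lower at an adjusted p under 0.05 (limma), with adjusted p between 0.966 and 1.00. Without adjustment 0 were higher and 1 was lower at p under 0.05, against 1.69% and 3.03% of all genes tested. The list had 14 negative and 3 positive folds and a median log2 fold of -0.10, beside -0.01 over all genes tested, of which 53.3% were negative. In 1 gene of the 17 every MED13cTg library lay below every WT library, against 5.85% of all genes tested, and in 0 every one lay above, against 3.46%.

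Among transporters and receptors, Slc16a1, a monocarboxylate transporter that carries ketone bodies across the cell membrane, was at 59.5, 63.1 and 68.1 FPKM in the WT libraries, against 68.7, 61.3 and 61.0 for MED13cTg ventricles. Its log2 fold was 0.0022 with a 95% interval of -0.26 to 0.27. The other tested transport genes, Slc16a3, Slc16a6, Slc16a7 and Bsg, had log2 fold changes of -0.29 to 0.16. The testis forms of the CoA transferase, Oxct2a and Oxct2b, and the receptors Hcar2 and Ffar3 fell under the filter in ventricles, with no library above 0.23 FPKM. These transport, testis and receptor genes were named after their values were seen.

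The 4 tested regulators had negative folds in ventricles, none past the threshold. Esrra, a nuclear receptor that drives mitochondrial genes, was the list gene without overlap, at 94.97, 90.3 and 94.2 FPKM in the WT libraries, against 86.4, 86.7 and 87.7 for MED13cTg (log2 fold -0.10, SE 0.10, adjusted p = 0.966). Ppargc1a, a coactivator of mitochondrial genes, was at 63.3, 55.5 and 44.6 FPKM in the WT libraries, against 33.0, 30.6 and 47.4 for MED13cTg (log2 fold -0.56, SE 0.21, adjusted p = 0.966), and was the gene with an unadjusted p under 0.05. Ppara, a fatty acid sensing nuclear receptor, was at 13.6, 19.1 and 17.96 FPKM in the WT libraries, against 11.1, 6.45 and 16.2 for MED13cTg, with overlap. Ppargc1a and Ppara were named after their values were seen.

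**Figure D3:**
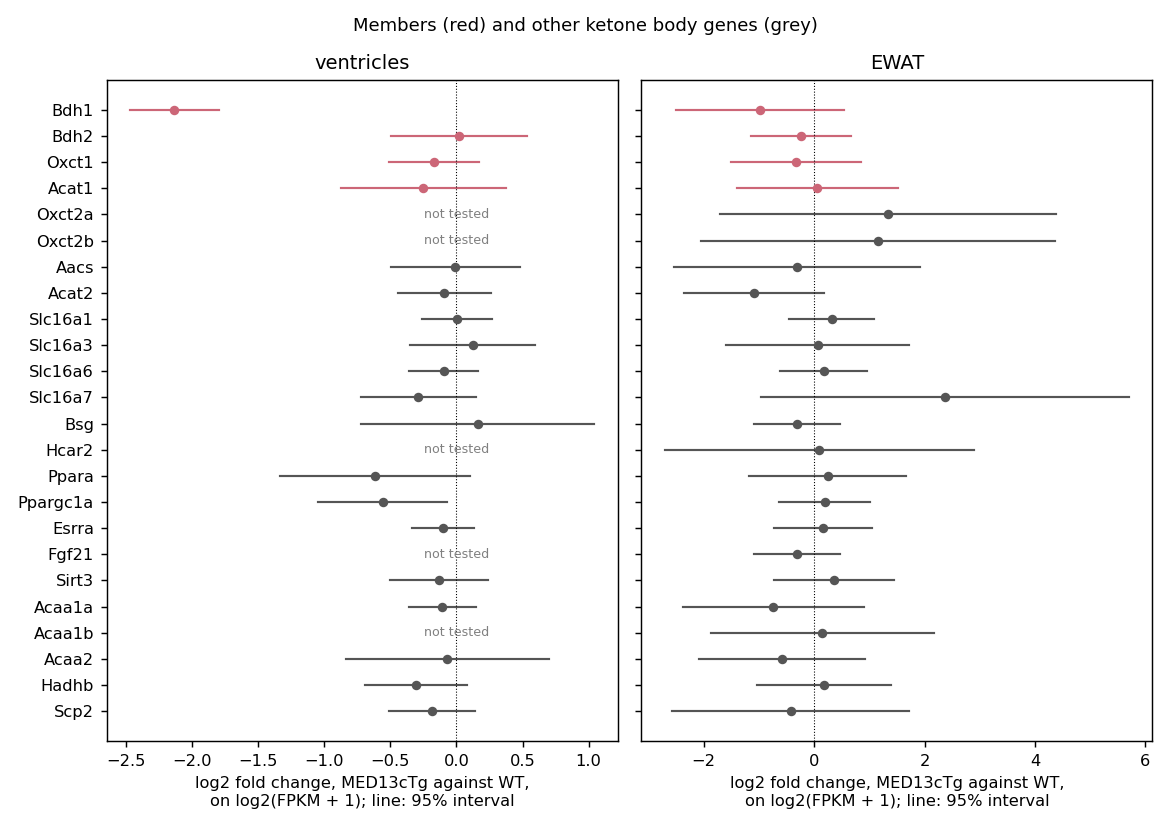
Log2 fold changes of MED13cTg against WT on log2(FPKM + 1), with 95% intervals, for the 4 pathway genes (red) and list genes of ketone use, transport, regulation and other thiolases tested in at least 1 tissue (grey), in ventricles (left) and EWAT (right, wider axis). Bdh1 in ventricles, chosen for its fall and shown as a description, lies at -2.13, the other genes there lie between -0.62 and 0.16, and every interval in EWAT includes 0.

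The genes most like each member were sought by Pearson correlation on log2(FPKM + 1) over the 6 ventricle libraries, as a description. Over 6 libraries high values are common, and 111 genes had a correlation above 0.9 with Bdh1, 123 with Bdh2, 83 with Oxct1 and 972 with Acat1. The 3 closest to Bdh1 were Gsto1 (r = 0.997), a glutathione transferase gene, Stbd1 (r = 0.996), whose product binds glycogen, and Ank (r = 0.991), a pyrophosphate transport gene. Their log2 folds were -0.33, -0.93 and -0.42. The correlation spans both genotypes, so this likeness includes the genotype difference for which Bdh1 was chosen, and likeness within a genotype was not tested. The closest to Bdh2 were Tmed5, 1110059E24Rik and Sdcbp, the closest to Oxct1 were Abcd3, Nkain1 and Ccdc90b, and the closest to Acat1 were Antxr2, 1200014J11Rik and Ptpn3, with r from 0.987 to 0.998.

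In EWAT the ketone body genes differed widely among the MED13cTg mice, and none of the 4 passed the threshold. Of the 14967 genes tested in EWAT, 0% were called higher and 0.0134% lower at an adjusted p under 0.05, and 0.14% and 1.11% without adjustment. A fit with the replicate number as a block called 0 lower in place of 2. The p-values set the difference of means against a spread pooled over both genotypes. In each of the 4 genes the SD was larger in MED13cTg than in WT EWAT. Marker sums of other cell types differed between the libraries as well. The 12 epididymis markers, such as Gpx5 and Lcn5, summed to 77617 to 101192 FPKM in WT and to 11977, 245 and 78108 FPKM in MED13cTg replicates 1, 2 and 3. These sums overlapped between genotypes. In 5 of the 12 markers every MED13cTg library lay below every WT library, against 7.8% of all genes tested in EWAT. The 11 adipocyte markers, such as Adipoq, summed to 13669 to 32591 FPKM in WT and to 1437, 81305 and 17622 FPKM in MED13cTg mice. The 9 germ cell markers, such as Prm1, summed to 247 to 314 FPKM in WT and to 17244, 7.58 and 383 FPKM in MED13cTg mice. The part of these cells in the values of the ketone body genes was not tested.

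Bdh1 in EWAT read 6.08, 4.47 and 5.09 FPKM for the WT mice, against 2.86, 0.282 and 5.27 for MED13cTg replicates 1, 2 and 3. It was thus lowest in the library with the lowest epididymis sum and the highest adipocyte sum, and close to the WT mean of 5.21 FPKM in MED13cTg replicate 3. The log2 fold was -0.97 (SE 0.62, 95% interval -2.50 to 0.55, adjusted p = 0.738). Without MED13cTg replicate 2 it was -0.33, without MED13cTg replicate 1 it was -1.12, and with MED13cTg replicate 3 alone against the WT mice it was 0.02. Over the 6 EWAT libraries, 1180 genes had a correlation above 0.9 with Bdh1, and Basp1 was among the 3 closest (r = 0.999).

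Oxct1 was at 59.3, 76.3 and 74.7 FPKM in the WT libraries, against 28.4, 101 and 58.1 for MED13cTg EWAT. The MED13cTg mice lay on both sides of the WT mice, with the highest value in replicate 2 and the lowest in replicate 1. The log2 fold was -0.33 (SE 0.48, 95% interval -1.51 to 0.85, adjusted p = 0.793). It was 0.14 without MED13cTg replicate 1 and -0.76 without MED13cTg replicate 2. The 3 genes most like it were Ptpn18, Timp4 and Top2b (r from 0.998 to 0.999).

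Acat1 had the same order among the MED13cTg mice as Oxct1, at 80.0, 105 and 99.9 FPKM in the WT libraries, against 45.5, 225 and 92.4 for MED13cTg EWAT. The means were 95.02 ± 13.3 and 121 ± 92.9 FPKM (SD, n = 3), and the log2 fold was 0.06 (SE 0.59, 95% interval -1.40 to 1.52, adjusted p = 0.973). It was 0.61 without MED13cTg replicate 1 and -0.53 without MED13cTg replicate 2, so its direction depended on which of these libraries was kept. The 3 genes most like it were Samhd1, 4632428N05Rik and B230120H23Rik (r from 0.998 to 1.00).

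Bdh2 was at 3.20, 3.49 and 3.55 FPKM in the WT libraries, against 1.59, 2.45 and 4.76 for MED13cTg EWAT. It was below all WT mice in replicates 1 and 2 and above all of them in replicate 3. The log2 fold was -0.24 (SE 0.37, 95% interval -1.15 to 0.66, adjusted p = 0.80). It was 0.02 without MED13cTg replicate 1 and -0.19 without MED13cTg replicate 2. Tns3 (r = 0.992) and Cacna2d1 (r = 0.986) were among the 3 genes most like it.

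**Figure D4:**
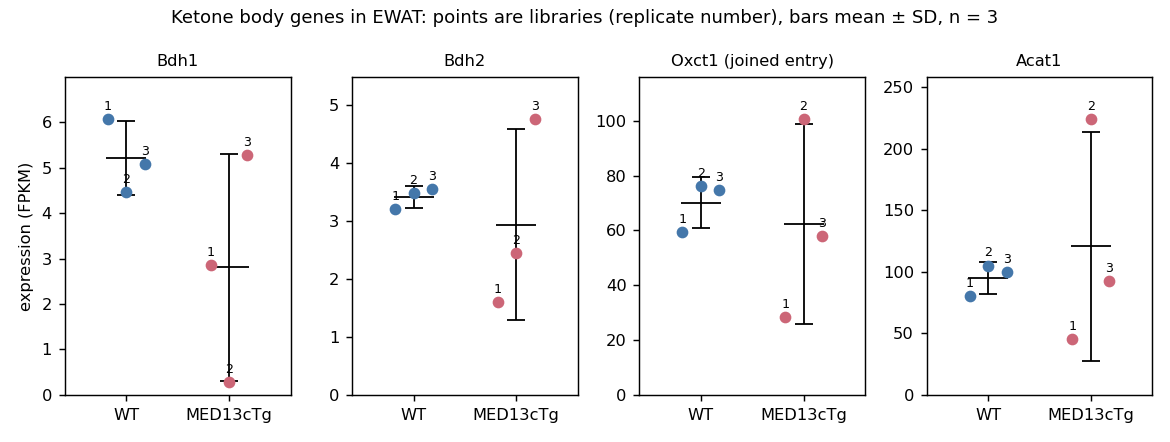
Expression in FPKM of the 4 pathway genes in EWAT, 1 point per library with its replicate number, and bars for the mean ± SD of 3 mice, on linear axes that start at 0. The WT mice lie close together in each gene, while the MED13cTg mice range from 0.282 to 5.27 FPKM for Bdh1 and from 45.5 to 225 FPKM for Acat1.

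The ratio of Acat1 to Oxct1 was narrow in WT EWAT and higher in each MED13cTg mouse. Acat1 held 135, 138 and 134 FPKM per 100 FPKM of Oxct1 in WT and 160, 223 and 159 in MED13cTg EWAT, without overlap. This is a description, and the other ratios computed in EWAT overlapped between genotypes. How often ratios of other genes lie without overlap was not tested. The entries of Acat1 and Oxct1 are longer than their RefSeq genes, so the ratio is uncertain. Marker sums differed widely among the MED13cTg libraries, and the part of cell types in the ratio was not tested. Bdh1 per 100 FPKM of Oxct1 was 10.3, 5.86 and 6.81 in WT and 10.1, 0.28 and 9.08 in MED13cTg EWAT, with overlap. Unlike in ventricles, the low ratio of Bdh1 was found in 1 of the 3 MED13cTg libraries.

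Of the 25 list genes, 22 were tested in EWAT and 0 were called in either direction at an adjusted p under 0.05 (limma). None had an unadjusted p under 0.05, against 0.14% of all genes tested as higher and 1.11% as lower. The list had 14 positive and 8 negative folds and a median log2 fold of 0.15, beside 0.01 over all genes tested, of which 49.3% were negative. Oxct2a and Oxct2b, with positive folds, passed the filter through MED13cTg replicate 1 alone. Without that library, 20 list genes were tested and 14 folds were positive and 6 negative, with a median of 0.16 beside -0.03 over all genes. Without MED13cTg replicate 2, 9 of 22 were positive and 13 negative, with a median of -0.29 beside -0.05 over all genes, so the direction of the list depended on that library. Neither fit called a list gene. Every MED13cTg library lay above every WT library in 1 gene, against 4.88% of all genes tested, and below in 2, against 7.8%.

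The gene above was Slc16a7, a high-affinity monocarboxylate transporter, at 4.10, 3.90 and 2.79 FPKM in the WT libraries, against 206, 10.6 and 4.49 for MED13cTg EWAT (log2 fold 2.38, SE 1.35, adjusted p = 0.738). Its highest value was in replicate 1, the library with the highest germ cell sum, and its log2 fold was 0.81 without that library and 2.89 without replicate 2. The genes below were Acat2, the cytosolic thiolase, at 105, 99.1 and 111 FPKM in the WT libraries, against 22.5, 56.5 and 90.5 for MED13cTg EWAT (log2 fold -1.08, SE 0.51, adjusted p = 0.738), and Fgf21, a hormone of fasting. The log2 fold of Acat2 was -0.54 without replicate 1 and -1.19 without replicate 2. Fgf21 was low throughout, at 1.35, 1.64 and 1.59 FPKM in the WT libraries, against 1.25, 0.958 and 0.918 for MED13cTg EWAT (log2 fold -0.31, SE 0.31, adjusted p = 0.738), with log2 folds of -0.38 and -0.28 without replicates 1 and 2.

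Further list genes, named after their values were seen, were far apart among the MED13cTg libraries. Oxct2a, the CoA transferase of testis, was at 0.237, 0.254 and 0.343 FPKM in the WT libraries, against 22.2, 0.0342 and 0.426 for MED13cTg EWAT, and passed the filter through replicate 1 alone. Its near-identical copy Oxct2b was at 25.5 FPKM in that library and at most 0.60 FPKM in the others, and reads of these copies may have been shared. Hcar2, the β-hydroxybutyrate receptor of adipocytes, listed under its older symbol Niacr1, was at 5.10, 11.1 and 5.77 FPKM in the WT libraries, against 0.722, 38.3 and 8.03 for MED13cTg EWAT, the order of the adipocyte sum among the MED13cTg mice. Its log2 fold was 1.25 without replicate 1 and -1.01 without replicate 2.

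**Figure D5:**
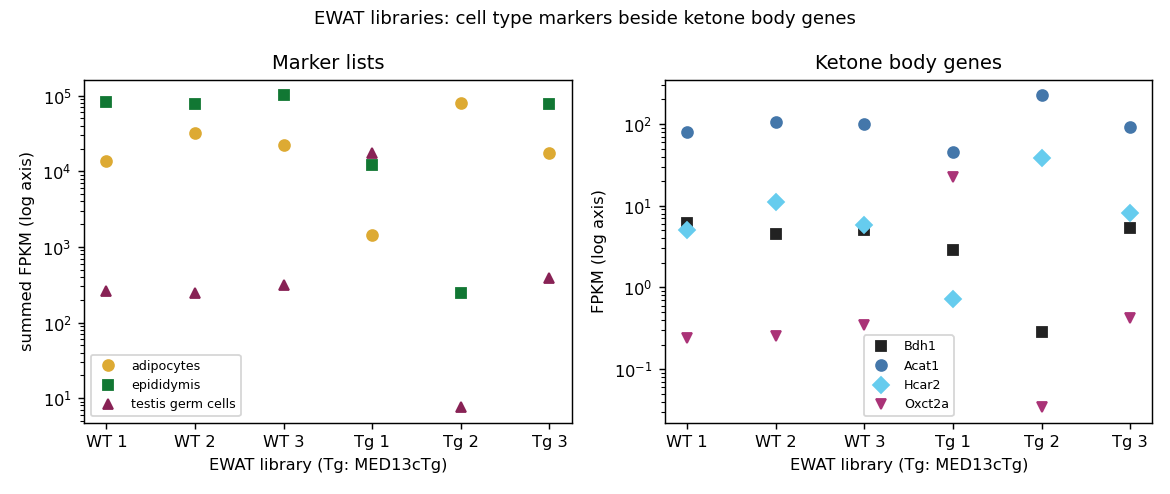
Summed FPKM of the adipocyte, epididymis and testis germ cell marker lists (left) and FPKM of Bdh1, Acat1, Hcar2 and Oxct2a (right) in each EWAT library, on log axes. In MED13cTg replicate 2 the epididymis sum is 245 FPKM and Bdh1 is at 0.282 FPKM, and in MED13cTg replicate 1 the germ cell sum is 17244 FPKM and Oxct2a is at 22.2 FPKM.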

How the data were processed

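RNA-seq libraries of ventricles and EWAT were read as the authors deposited them, in 1 table of FPKM values per tissue with 23042 rows. The authors aligned reads to mm9 with TopHat and estimated FPKM with Cufflinks at default settings, and versions are not given in the sources used here. In both tables, 341 rows join several symbols, the authors' means and fold columns were not used, and 1 unnamed column in EWAT was not used. Genotypes and replicates come from the sample titles, which do not say that the mice with the same number are related.

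Each tissue was fitted alone. Rows averaging 1 FPKM or more across its 6 libraries entered limma 3.58.1 (R 4.3.3) after log2(FPKM + 1) (lmFit, then eBayes with a trend, no covariate), with Benjamini-Hochberg adjustment over all rows tested and a threshold of 0.05. Fold changes on this scale understate those of low genes. Neighbouring genes were taken from RefSeq (GRCm38), used for names, order and lengths only. Figures were drawn with matplotlib 3.10.9 in Python 3.11.15.

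The 4 genes, the ketone list, the marker lists and the sets of ventricle libraries were chosen with earlier results of these data known. Named are the 4 genes, list genes past the threshold or without overlap (up to 8 per tissue), the 3 most alike genes per member and tissue, and neighbours. Further names are marked in the text, and some genes that this rule or the lists hold are not reported here. The alternatives changed the filter (none, or 5 FPKM), the pseudocount (0.1), the scaling (quantile normalization, or median-of-ratios), the model (array weights, no trend, the replicate number as a block, the library sets as a covariate) and the libraries kept. Relative depth was read from the ratio that recurred most among values below 0.15 FPKM. The fit was tested on simulated libraries drawn with the WT spread in both genotypes. That setting does not cover the wider spread of the MED13cTg EWAT libraries. Deviations of same-numbered libraries from their group means had correlations of 0.347, 0.304 and 0.144 in EWAT, and of 0.085, -0.19 and 0.14 in ventricles. The EWAT values met the rule used for pairing (over 0.1 in every same-numbered pair). WT replicate 3 and MED13cTg replicate 2, with different numbers, had 0.168 in EWAT, so the values do not settle a pairing by number. The other different-numbered EWAT pairs were negative, from -0.417 to -0.025. The values in the text are from the fit without this pairing, and the blocked fit was an alternative.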

Additional observations from a re-analysis of the deposited data

How the results depend on the processing

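No ketone list gene was called in either tissue under any alternative run, and Oxct1 and Acat1 in ventricles kept their negative folds under all 15, at -0.22 to -0.07 and -0.51 to -0.06 with a library left out (nearest 0 without WT replicate 3, and for both farthest without WT replicate 1). Bdh1 in ventricles had a log2 fold of -2.64 with a pseudocount of 0.1 and -1.92 with array weights, and -2.27 to -2.07 with a library left out. Bdh2 in ventricles turned to -0.010 with a pseudocount of 0.1, -0.065 after quantile normalization and -0.12 with the library sets as a covariate, and ran from -0.17 to 0.22 with a library left out. In EWAT, leaving out a library gave -0.56 to 0.016 for Bdh2, -0.76 to 0.14 for Oxct1, -0.53 to 0.61 for Acat1 and -1.47 to -0.33 for Bdh1. Bdh2 in EWAT was 0.0068 with array weights. MED13cTg replicate 3 alone against the WT mice, a value with no test or counts, gave 0.023 for Bdh1, 0.39 for Bdh2 and -0.030 for Acat1. Over all genes, the 4 called lower in ventricles became 1 with no filter, 1 with a filter at 5 FPKM, 8 with array weights and 0 to 4 with a library left out (0 without MED13cTg replicate 2), and the 3 called higher became 7 with array weights and 3 to 6 with a library left out. The 2 called lower in EWAT became 0 with no filter, 0 with array weights and 0 to 4 with a library left out, with 0 when any MED13cTg library was left out, and the 0 called higher became 0 to 2 (2 without MED13cTg replicate 1). The filter at 5 FPKM gives no value for Bdh2 or, in EWAT, for Bdh1. The cause of these shifts was not tested. In the fit blocked on the replicate number, genes called lower went from 4 to 1 in ventricles and from 2 to 0 in EWAT, and no other call changed for the 4 genes or the list. The block left the folds as they were, with adjusted p in EWAT of 0.751 for Bdh1, 0.844 for Bdh2, 0.781 for Oxct1 and 0.968 for Acat1. In ventricles the libraries share only a number (correlations of 0.085, -0.19 and 0.14). Depth is unknown, which limits the low values of Bdh2.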
